A study of Mus musculus with 18 samples.

Results

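Bone morphogenetic proteins (BMPs) are secreted signalling proteins that are held in check outside the cell by secreted antagonists, and the 9 genes described here encode such antagonists or their relatives. They are Vwc2l, Vwc2, Chrd, Chrdl1, Bmper, Nog, Grem1, Fst and Fstl1, matched by symbol among 35734 genes in the authors' deposited table of a fibroblast RNA-seq comparison. All 9 were found, each with 1 Ensembl gene identifier, and all 9 were among the 16757 genes with an adjusted p there. Vwc2l was the starting point because of its rise in this same comparison, and the other 8 were taken for their function, with earlier results of these data known. The RNA values below are therefore a description of the members and carry no test of them.

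The cells were mouse embryonic fibroblasts, connective tissue cells grown from embryos, of the R26-M2rtTA line on a C57BL/6 background, which expresses the transactivator that doxycycline switches on. The fibroblasts of both groups carried inducible lentiviral vectors for the neuronal transcription factors Brn2 (gene Pou3f2) and Myt1l. Those of the second group carried vectors for Ikzf1 and Ikzf4, zinc finger factors of the Ikaros family, as well. RNA was taken 48 h after doxycycline, with 3 libraries per group, and the labels do not say whether libraries of a group came from separate cultures. No group without Brn2 and Myt1l was part of the comparison. The RNA-seq libraries held 34966344 to 44270426 estimated reads without Ikzf1 and Ikzf4 and 38910839 to 41871989 with them. The authors' deposited table put Ikzf4 8.54 (SE 0.15) and Ikzf1 7.76 (SE 0.17) higher on the log2 scale, the direction that the labels give. Of the factors that both groups carried, Myt1l was higher with Ikzf1 and Ikzf4 as well, by 0.50 (SE 0.17; adjusted p = 0.0157, DESeq2), and Pou3f2 was not called (-0.05, SE 0.08) in the authors' deposited table. The part of the Myt1l difference in the values below was not tested. Of 10 fibroblast markers, all had a mean normalised count of at least 695.9 in the authors' deposited table. The 6 macrophage markers, Ptprc and Csf1r among them, lay between 522.3 and 2580 there, so RNA of these genes was present too. Of 5 skeletal muscle markers, Myod1, Myog and Myf5 had means under 0.2 in the authors' deposited table, Myh3 had a mean of 2.03 and Des one of 83.5.

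BMPs bind paired type I and type II receptors, which phosphorylate Smad1, Smad5 and Smad9, and these enter the nucleus with Smad4 to act on genes such as those of the Id family. Chordin, its relatives and noggin bind BMPs and keep them from their receptors, and tolloid proteases cut chordin and free its cargo. Follistatin binds activins and myostatin most tightly. In embryos, antagonists of this kind help to set up neural tissue, and in connective tissue they act on bone, cartilage and muscle growth.

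The promoter sequences of the pair with the largest rises, and of Grem1, the next gene with the largest rise among those with a listed promoter, are shown as the 250 bases before the start site in RefSeq, build GRCm38.p6, 5′ to 3′ on the strand of the gene. They are given to show how unlike these promoters are in composition. Capitals mark every match to any of 4 short motifs searched on both strands, which were TGGGAA (the Ikaros core), AAGTTT (the Myt1l core), TGCAAAT (part of the octamer bound by POU factors such as Brn2) and GGCGCC (a GC-rich Smad motif).
Vwc2l: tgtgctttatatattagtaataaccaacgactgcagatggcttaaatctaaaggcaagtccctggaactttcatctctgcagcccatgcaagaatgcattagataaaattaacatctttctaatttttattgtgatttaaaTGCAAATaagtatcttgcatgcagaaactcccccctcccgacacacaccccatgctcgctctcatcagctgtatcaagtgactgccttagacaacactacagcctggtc
Vwc2: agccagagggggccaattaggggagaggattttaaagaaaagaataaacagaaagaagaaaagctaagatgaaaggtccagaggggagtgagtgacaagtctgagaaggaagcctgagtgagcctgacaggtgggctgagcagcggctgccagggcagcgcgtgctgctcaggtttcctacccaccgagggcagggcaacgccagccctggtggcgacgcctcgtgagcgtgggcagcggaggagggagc
Grem1: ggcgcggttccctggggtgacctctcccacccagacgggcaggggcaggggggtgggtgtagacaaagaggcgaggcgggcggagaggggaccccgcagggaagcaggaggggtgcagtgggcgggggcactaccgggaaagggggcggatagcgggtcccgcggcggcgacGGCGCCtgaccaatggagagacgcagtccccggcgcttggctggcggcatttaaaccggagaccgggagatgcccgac
These stretches lie at chr1:70725465-70725714 (plus strand), chr11:11113766-11114015 (plus strand) and chr2:113758649-113758898 (minus strand). The gene records of Vwc2l and Vwc2 begin at other positions of the same chromosomes (70725439 and 11113868), so RefSeq lists more than 1 start for each. RefSeq promoters were found for 6 of the 9 genes.

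The Vwc2l promoter was rich in A and T, with 40.8% G and C and 3 CG pairs, against medians of 52.4% and 6 over 32851 promoters of this length. The other 5 promoters were richer in G and C, at 58.8% for Vwc2, 68.0% for Fstl1, 71.6% for Bmper, 72.0% for Grem1 and 78.0% for Chrd. The octamer part TGCAAAT occurred once in the Vwc2l promoter, 103 to 109 bases before the start, and in 3.56% of all promoters. GGCGCC occurred in the promoters of Grem1 (73 to 78 bases before the start) and Chrd (198 to 203 bases before), and in 9.59% of all promoters. TGGGAA, present in 21.6% of all promoters, and AAGTTT, present in 12.8%, were not found in the 6 windows. Such a match is a string of letters in a window and not a measured binding site.

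Vwc2l and Vwc2 encode secreted proteins with von Willebrand factor C domains, the cysteine-rich modules with which chordin binds BMPs, and are expressed mainly in the nervous system. Vwc2l (ENSMUSG00000045648) had a log2 fold change of 3.26 (SE 0.19) with Ikzf1 and Ikzf4 in the authors' deposited table, a 9.60-fold difference with a 95% interval of 7.38 to 12.5. Of the 16757 genes, only Ikzf4 and Ikzf1 had a larger positive value, so Vwc2l stood in rank 3. Its mean normalised count over the 6 libraries was 214.6 in the authors' deposited table, at the 34th percentile of these genes (34.3). A gene with a modest read count thus had the largest deposited value after the added factors. Deposited values may be understated, most at low means, so these ranks hold for the deposited values only. Vwc2 (ENSMUSG00000050830), its paralogue, was higher by 1.57 (SE 0.21) in the authors' deposited table, a 2.97-fold difference (2.24 to 3.94), and held rank 66 among positive values. Vwc2 had a mean normalised count of 70.7. Values of each gene in each library are not given here, because the sources used here do not pair the transcripts of the per-library files with genes.

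**Figure D1:**
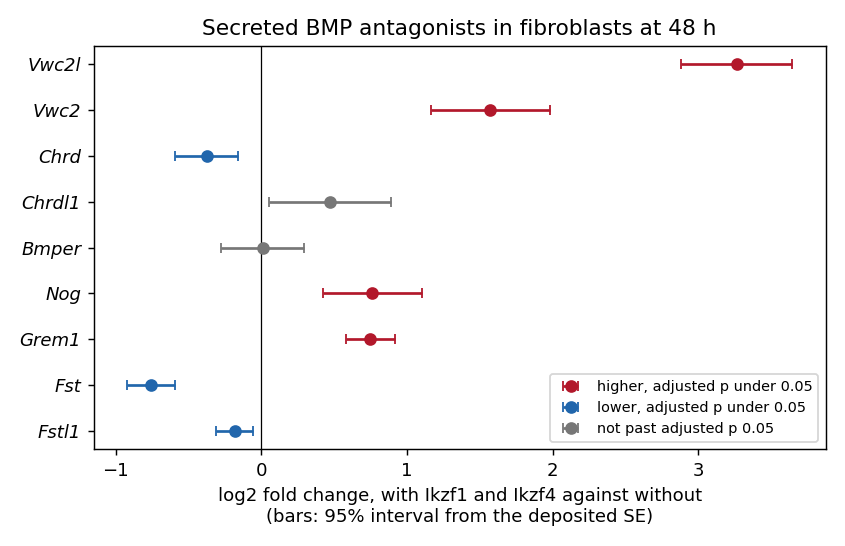
Log2 fold change of the 9 antagonists with Ikzf1 and Ikzf4 against Brn2 and Myt1l alone in fibroblasts at 48 h, from the authors' deposited table, with 95% intervals from the deposited standard errors (3 libraries per group). Vwc2l (3.26) and Vwc2 (1.57) lie furthest to the right, Fst (-0.76) lies furthest to the left, and the interval of Bmper (-0.28 to 0.29) spans 0.

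The chordin family did not move as a group. Chrd (ENSMUSG00000006958), which encodes chordin, the BMP antagonist of the embryonic organizer, had a log2 fold change of -0.38 (SE 0.11) in the authors' deposited table, a difference of 1.30-fold. Chrdl1 (ENSMUSG00000031283), which encodes a chordin-like antagonist of BMP4, had a value of 0.47 (SE 0.21; interval 0.05 to 0.89) in the authors' deposited table. It did not pass the adjusted threshold of 0.05 there and had the lowest mean of the 9 genes, 28.2 normalised counts. Bmper (ENSMUSG00000031963), the mammalian crossveinless-2, which can hinder or help BMP signalling, was at 0.01 (SE 0.15) in the authors' deposited table. Its interval of -0.28 to 0.29 corresponds to 0.82-fold to 1.23-fold, so a change of 1.5-fold in either direction lay outside it. Chrd overlaps Thpo in the RefSeq gene table, and reads of overlapping genes may be split between them. Thpo was lower as well, at -0.81 (SE 0.22; adjusted p = 0.00173, DESeq2) in the authors' deposited table.

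Noggin and gremlin, small cystine-knot proteins that cap BMP dimers, were both higher. Nog (ENSMUSG00000048616) differed by 0.76 (SE 0.17) in the authors' deposited table, or 1.70-fold (1.34 to 2.14), at a mean of 193.4 normalised counts. Grem1 (ENSMUSG00000074934) differed by 0.75 (SE 0.09) in the authors' deposited table, or 1.68-fold (1.495 to 1.886), at a mean of 11586. Both deposited values were thus nearly the same, while the mean counts were far apart and the error of Grem1 was the smaller. Deposited fold changes may be understated, most at low means, so the underlying changes of Nog and Grem1 need not be alike.

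Of the follistatin family, Fst (ENSMUSG00000021765), which encodes follistatin, had a log2 fold change of -0.76 (SE 0.08) in the authors' deposited table, which is 1.69-fold lower (1.51 to 1.90), at a mean of 4955 normalised counts. This was the largest fall among the 9 genes. Fstl1 (ENSMUSG00000022816), a follistatin-like glycoprotein made by mesenchymal cells that can bind BMP4, had a log2 fold change of -0.18 (SE 0.06) in the authors' deposited table, or 1.14-fold. It had the highest mean of the 9 genes, 42547 normalised counts. These means are not scaled to transcript length, so they do not rank the genes by abundance of their RNA.

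In all, 4 of the 9 genes were called higher and 3 lower by DESeq2 (adjusted p under 0.05) in the authors' deposited table. Over all 16757 genes, the share called was 30.6%, with 15.3% higher and 15.4% lower. Vwc2l was chosen for its rise in this contrast, and nothing is read from the count of the 9. Among the 14255 genes with a mean of at least 20, which hold all 9, 36% passed 0.05 with the p-values adjusted again over these genes, and 7 of the 9 did. At an adjusted p under 0.01, 22.5% of all 16757 genes and 6 of the 9 were called. Without Vwc2l, 3 of 8 were called higher and 3 lower. For the 9, the median log2 fold change in the authors' deposited table was 0.47, with a range of -0.76 to 3.26, and the median over all genes was -0.0004. The median of the absolute values was 0.75 for the 9 and 0.15 for all genes. Without Vwc2l, the median of the other 8 was 0.24 and that of their absolute values 0.61. The other 8 were also chosen with earlier results of these data known, so nothing is read from these medians either. Requiring an absolute log2 fold change over 1 beside an adjusted p under 0.05 left Vwc2l and Vwc2, and 2.15% of all genes. In bulk RNA, fewer cells that express a gene and less of its RNA per cell cannot be told apart.

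**Figure D2:**
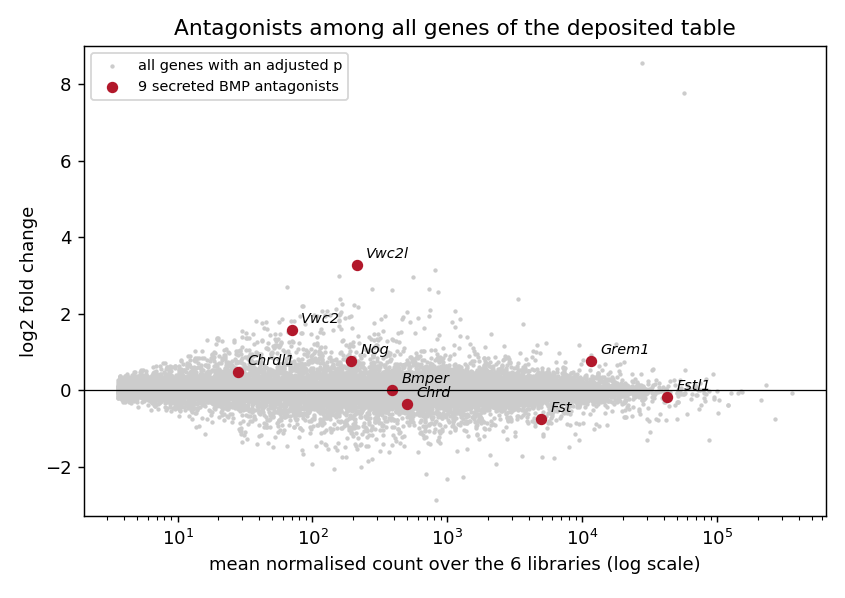
Mean normalised count (log scale) against log2 fold change for all 16757 genes with an adjusted p in the authors' deposited table (grey) and the 9 antagonists (red, named). Vwc2l, at a mean of 214.6, lies above every gene except the 2 points at the top, which are Ikzf4 (8.54) and Ikzf1 (7.76), while Fstl1, at 42547, lies close to the line at 0.

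Markers of fibroblasts moved beside the antagonists. Of the 10 markers, 8 were lower and 0 higher by DESeq2 (adjusted p under 0.05) in the authors' deposited table, with a median of -0.39, where 15.4% of all genes were lower and 15.3% higher. The means of these 10 were at least 695.9, where smaller changes are called than at low means, and no share among genes of like means was computed. The counts of the other marker lists below stand beside the same shares of all genes. Dcn, a matrix proteoglycan (-1.77, SE 0.08), and Col3a1, a fibrillar collagen (-1.29, SE 0.06), fell most in the authors' deposited table. Fn1 (0.14, SE 0.07) and Pdgfra (0.03, SE 0.12) were not called there. Of 6 macrophage markers 1 was called, C1qa, at -0.17 (SE 0.07; adjusted p = 0.037, DESeq2) in the authors' deposited table, and of 6 neuron markers tested 1 was called, Tubb3, at -0.42 (SE 0.10; adjusted p = 0.00033, DESeq2). Of 5 endothelial markers, 0 were called. Of 3 epithelial markers tested 1 was called, Epcam, which rose by 0.64 (SE 0.22; adjusted p = 0.0147, DESeq2) in the authors' deposited table, and of 3 cartilage markers tested 1 was called, Sox9, which rose by 0.37 (SE 0.13; adjusted p = 0.0168, DESeq2). The part of such shifts in the values of Fst, Fstl1 and Chrd was not tested.

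Beyond the 9 genes, 66 others of BMP and activin signalling were grouped by role, and the authors' deposited table gave an adjusted p for 59 of them. Of these, 18 were called higher and 8 lower, or 26 in all, beside the background of 30.6% (15.3% higher and 15.4% lower), which also stands beside each count by role below. Their median log2 fold change was 0.11.

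Among 7 tested antagonists and related proteins outside the 9, 3 rose and 1 fell. Kcp, a kielin/chordin-like protein, rose by 0.57 (SE 0.17; adjusted p = 0.00471, DESeq2), Crim1, a membrane protein with chordin-like repeats, by 0.35 (SE 0.07; adjusted p = 1.71e-05, DESeq2) and Fstl3, a follistatin relative, by 0.22 (SE 0.08; adjusted p = 0.0153, DESeq2) in the authors' deposited table. Nbl1, a relative of gremlin, fell by 0.18 (SE 0.07; adjusted p = 0.0292, DESeq2) there. Twsg1, a partner of chordin, was at 0.02 (SE 0.05) in the authors' deposited table. Of 3 proteases of the tolloid family, Tll1 fell by 0.30 (SE 0.07; adjusted p = 0.000508, DESeq2) in the authors' deposited table, and Bmp1 (-0.09, SE 0.05) and Tll2 (-0.04, SE 0.20) were not called.

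Of 15 tested ligands, the proteins on which these antagonists act, 2 rose and 1 fell. Mstn, which encodes myostatin, a ligand that follistatin blocks, rose by 1.80 (SE 0.21; adjusted p = 4.19e-16, DESeq2) in the authors' deposited table, at a mean of 69.3 normalised counts. Bmp8a rose by 0.58 (SE 0.22; adjusted p = 0.0338, DESeq2), and Inhbb, an activin subunit, fell by 0.34 (SE 0.11; adjusted p = 0.0076, DESeq2) in the authors' deposited table. Bmp4 (-0.24, SE 0.20), Bmp2 (0.51, SE 0.22) and Inhba (-0.08, SE 0.08) did not pass the threshold there. The rise of Mstn thus stood beside a fall of its binding protein Fst and a rise of the follistatin relative Fstl3 (0.22, SE 0.08) in the same libraries. A link between these differences was not tested.

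Of 12 receptors and co-receptors tested, 2 rose and 4 fell. Acvrl1, a type I receptor for BMP9 and BMP10 best known from endothelium, had the largest fall, with a value of -0.85 (SE 0.14; adjusted p = 3.17e-08, DESeq2) in the authors' deposited table. Acvr2b (-0.45, SE 0.18; adjusted p = 0.0445, DESeq2), Acvr1 (-0.31, SE 0.06; adjusted p = 1.84e-05, DESeq2) and the co-receptor Rgmb (-0.30, SE 0.06; adjusted p = 4.04e-05, DESeq2) fell as well in the authors' deposited table. The receptors Acvr1b (0.26, SE 0.08; adjusted p = 0.00475, DESeq2) and Acvr2a (0.19, SE 0.06; adjusted p = 0.0136, DESeq2) rose there. Bmpr1a (0.003, SE 0.05) and Bmpr2 (0.11, SE 0.07) were not called in the authors' deposited table.

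Of 8 Smads and Smurfs, 5 rose and 0 fell, where 15.3% of all genes rose and 15.4% fell. Smad9 rose by 1.43 (SE 0.11; adjusted p = 2.06e-36, DESeq2) and Smad1 by 0.39 (SE 0.06; adjusted p = 5.76e-09, DESeq2) in the authors' deposited table, while Smad5 (0.16, SE 0.05), Smurf1 (0.15, SE 0.05) and Smad2 (0.14, SE 0.05) rose less, with an adjusted p of at most 0.0348 by DESeq2. Of 14 genes that BMPs are known to induce, 6 rose and 1 fell, beside the same 15.3% and 15.4%. Id4 (0.84, SE 0.11; adjusted p = 1.44e-13, DESeq2), Hey1 (0.80, SE 0.16; adjusted p = 2.79e-06, DESeq2), Runx2 (0.78, SE 0.12; adjusted p = 1.68e-09, DESeq2) and Id2 (0.64, SE 0.08; adjusted p = 1.99e-13, DESeq2) rose most in the authors' deposited table. Smad7, an inhibitory Smad (0.41, SE 0.11; adjusted p = 0.00127, DESeq2), and Id1 (0.37, SE 0.11; adjusted p = 0.00333, DESeq2) rose too in the authors' deposited table. The gene that fell was Id3 (-0.33, SE 0.07; adjusted p = 3.65e-05, DESeq2), named after its value was seen. The Id genes thus split, with Id1, Id2 and Id4 higher and Id3 lower, and Smad6 (0.18, SE 0.10) and Bambi (0.32, SE 0.13) were not called in the authors' deposited table.

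**Figure D3:**
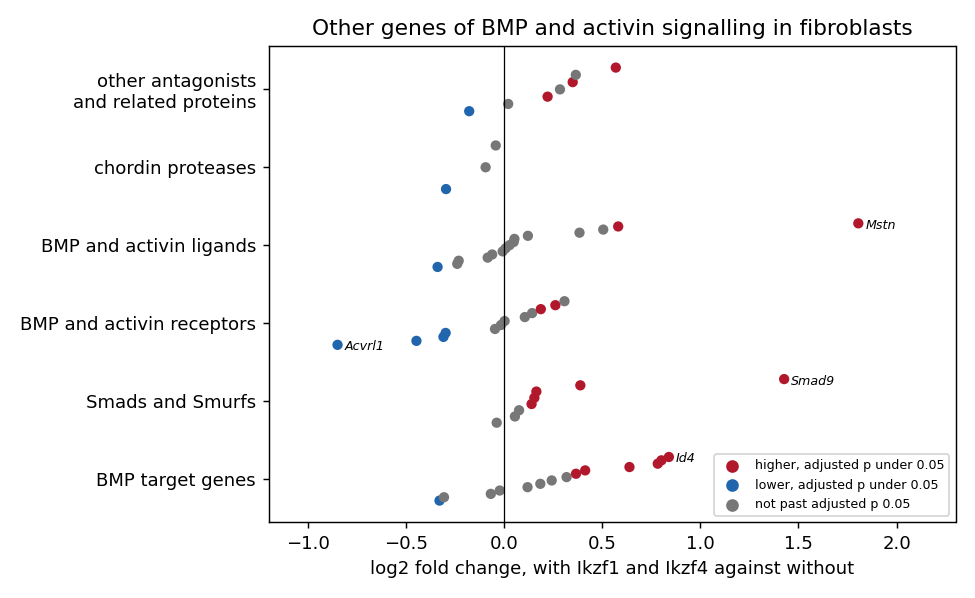
Log2 fold change of the 59 tested genes of BMP and activin signalling outside the 9 antagonists, by role, from the authors' deposited table. Each point is a gene, red or blue where the DESeq2 adjusted p was under 0.05, and Mstn (1.80) and Smad9 (1.43) stand furthest to the right.

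The genes with a mean of at least 20 whose log2 fold change was nearest to that of Vwc2l (3.26) were Cbln2 (3.14, SE 0.12), Slitrk4 (2.99, SE 0.18), Prl3a1 (2.96, SE 0.13), Cyp1a1 (2.68, SE 0.22) and Sncg (2.65, SE 0.12) in the authors' deposited table. Likeness here is the distance between log2 fold changes, from 0.12 for Cbln2 to 0.62 for Sncg, in a comparison of 2 groups.

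The antagonists differed in what lay next to them. By the gene order of GRCm38.p6, Vwc2 lies on chromosome 11 with Ikzf1 415.7 kb away and 3 protein-coding genes between them, and Vwc2l lies on chromosome 1 with Ikzf2, another Ikaros family gene, 1038 kb away and 1 protein-coding gene, Spag16, between them. Ikzf2 itself was at -0.19 (SE 0.15; adjusted p = 0.349, DESeq2) in the authors' deposited table. Spag16, whose record ends 0.307 kb from that of Vwc2l, was higher by 0.68 (SE 0.15; adjusted p = 3.32e-05, DESeq2), and Erbb4, the next gene beyond Ikzf2, by 1.48 (SE 0.18; adjusted p = 1.96e-15, DESeq2) in the authors' deposited table. On the other side of Vwc2l, Bard1, Abca12 and Atic were not called. Next to Vwc2, Zpbp was higher by 0.48 (SE 0.17; adjusted p = 0.0155, DESeq2) in the authors' deposited table, and the other 5 neighbours were not called. Ankfn1 beside Nog rose with it, by 1.34 (SE 0.22; adjusted p = 1.75e-08, DESeq2), whereas Scg5 beside Grem1 fell by 1.06 (SE 0.23; adjusted p = 2.59e-05, DESeq2), in the authors' deposited table. Near Fst, the integrin genes Itga1 (-0.80, SE 0.08; adjusted p = 1.81e-20, DESeq2) and Itga2 (-0.69, SE 0.16; adjusted p = 8.8e-05, DESeq2) fell in the authors' deposited table, as did Ndufs4 (-0.16, SE 0.06; adjusted p = 0.0321, DESeq2), while Arl15 rose by 0.33 (SE 0.09; adjusted p = 0.00126, DESeq2). Of 43 tested neighbours, taken as the 3 nearest protein-coding genes on each side, 6 were called higher and 9 lower, or 34.9%, beside 30.6% of all genes.

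**Figure D4:**
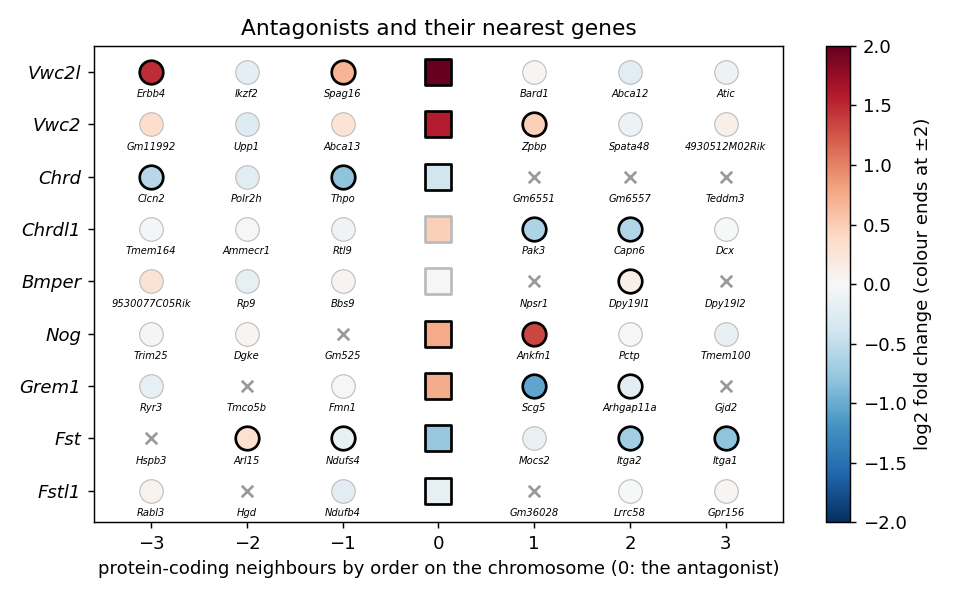
The 9 antagonists (squares, at 0) and up to 3 protein-coding neighbours on each side by order along the chromosome (circles), coloured by log2 fold change in the authors' deposited table, with colours ending at 2 in either direction. Black outlines mark a DESeq2 adjusted p under 0.05 and crosses mark genes without an adjusted p, and the row of Vwc2l shows Spag16 and Erbb4 as the 2 called neighbours.

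Chromatin at the 9 genes was examined in the retinal multiome, where single nuclei are tagged by transposase and gene positions in mm10 apply. The control library came from retina labelled as Muller glia of the GLAST-CRE ERT2 ; RosaYFP line and carried mCherry, whereas the labels of the Ikzf1/4 library hold only its title where a tissue, line and strain would stand. Both are described with tamoxifen at 14 days and carry 48 h in the run names of their headers, so their time is not settled here. With 1 library per group there is no test, and the intervals given cover counting error only. The libraries held 52119123 and 29358834 unique fragments, and 3 barcodes with at least 3000 fragments occurred in both. Fibroblast ATAC-seq peaks at these genes were not analysed here, because no gene positions in the build of those lists were at hand.

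Fragments were counted over each gene and 2 kb on both sides and scaled to CPM, the count per 1000000 fragments of the library. Of the 9 genes, 0 differed by more than 1.5-fold between the libraries, where 7.48% of 47105 genes did. That share includes genes with as few as 50 fragments over both libraries, where counting error is large. It also includes 2121 genes on chromosome X, whose median ratio was 0.70. Nothing is therefore read from the 0. Vwc2l held 49.4 CPM in the control (47.6 to 51.4) and 42.6 CPM in the Ikzf1/4 library (40.3 to 45.1), for a ratio of 0.86 (0.81 to 0.92). Vwc2 held 43.9 and 36.3 CPM, a ratio of 0.83 (0.77 to 0.89). These ratios lay at the 23rd (23.0) and 19th (18.7) percentiles of all genes, whose median ratio was 1.02. They come from other cells than the fibroblast RNA and are not compared with it. Fst held 6.35 and 8.35 CPM, a ratio of 1.31 (1.11 to 1.55), the highest of the 9 in these windows. With 10 kb on both sides, Fst was at 1.17 (1.03 to 1.34) and Nog at 1.18 (1.04 to 1.34), so the highest gene depended on the window.

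Chrdl1 held 34.3 CPM in the control and 25.6 CPM in the Ikzf1/4 library, so the ratio was 0.75 (0.68 to 0.81). It lies on chromosome X, whose fragments had a ratio of 0.68 as a whole, so no difference beyond that of the chromosome is read from it. The intervals of the other 5 genes held 1, with ratios of 1.05 for Chrd (0.92 to 1.21), 0.98 for Bmper (0.94 to 1.03), 1.15 for Nog (0.95 to 1.39), 0.84 for Grem1 (0.68 to 1.03) and 0.95 for Fstl1 (0.88 to 1.03). Differences at Nog and Grem1 smaller than these intervals were not detectable at this depth, with 190 and 144 fragments in the Ikzf1/4 library. Among all genes, the share whose interval held 1 was not computed, so nothing is read from the count of 5.

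The choice of barcodes moved some of these ratios. In barcodes with at least 3000 fragments, which held 34.6% of control and 50.8% of Ikzf1/4 fragments, Vwc2l was at 0.71 (0.63 to 0.80), Vwc2 at 0.91 (0.80 to 1.04), Chrd at 1.37 (1.11 to 1.70), Chrdl1 at 0.96 (0.82 to 1.13) and Fst at 1.27 (0.98 to 1.63). The ratio of chromosome X fragments in these barcodes was 0.83, so that of Chrdl1 is to be set beside it. The interval of Vwc2l lay below 1 in both sets, but the barcodes with at least 3000 fragments are part of the full set. No share of all genes was computed for them, so nothing is read from this. The libraries also differed in retinal markers over all barcodes. The windows of 4 rod genes had ratios from 1.28 (Pde6b) to 1.97 (Nrl), and those of 5 Muller glia genes from 0.86 (Slc1a3) to 1.06 (Aqp4), and the part of cell makeup in the ratios of the antagonists was not tested.

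**Figure D5:**
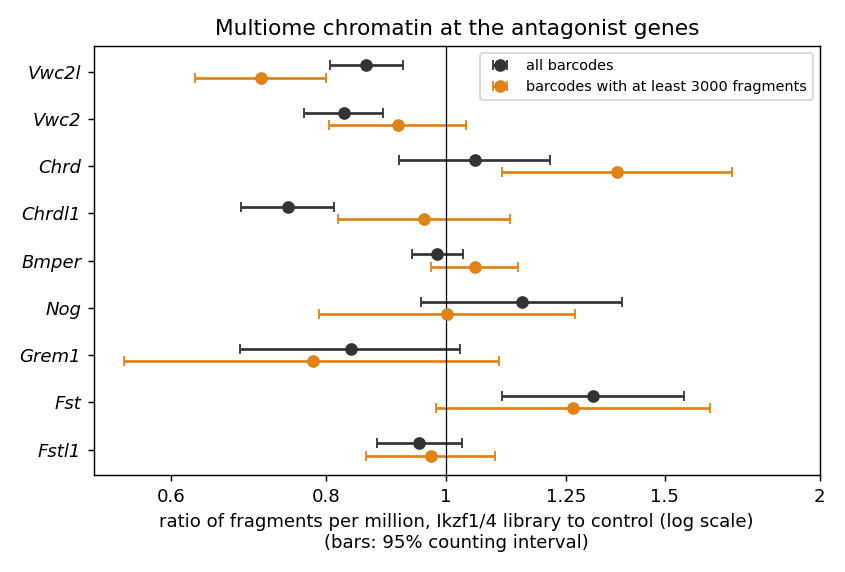
Ratio of fragments in CPM in the gene windows of the 9 antagonists, Ikzf1/4 library to control library (log scale), over all barcodes (black) and over barcodes with at least 3000 fragments (orange), with 95% counting intervals and 1 library per group. The ratios of Vwc2l, Vwc2, Chrdl1, Grem1 and Fstl1 lie below 1 in both sets. Chrdl1 moves from 0.75 to 0.96, beside 0.68 and 0.83 for chromosome X as a whole.

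At the start sites themselves, within 1 kb on both sides, the 6 genes with a listed promoter lay between the 49th (49.4) and 67th (66.5) percentiles of start windows in the control. Vwc2l had 1.497 CPM in the control and 1.67 CPM in the Ikzf1/4 library, near the control median of 1.52 CPM over 32851 start windows, and its ratio of 1.12 (0.76 to 1.61) held 1. Vwc2 (0.84, 0.56 to 1.23), Grem1 (0.99, 0.68 to 1.43), Fstl1 (0.93, 0.69 to 1.24) and Chrd (1.12, 0.88 to 1.43) held 1 in their intervals as well. Bmper had 3.88 CPM at its start in the control, the highest of the 6 there, and 2.93 CPM in the Ikzf1/4 library, where Chrd was higher (3.75 CPM). The ratio of Bmper was 0.76 (0.58 to 0.98). For all start windows, the share whose interval held 1 was not computed, so nothing is read from this split.

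In bins of 500 bp over each gene and 10 kb on both sides, the highest bin of Vwc2l lay inside the gene, 126.5 kb after the start site, at chr1:70851939-70852438 (1.15 and 1.26 CPM). The highest bin of Bmper covered its start site (chr9:23223076-23223575, 1.71 and 1.12 CPM). That of Fstl1 lay 35.7 kb inside the gene (chr16:37812555-37813054, 2.05 and 2.52 CPM), and that of Chrd lay outside the gene, at -8.45 kb from its start site (chr16:20724425-20724924, 2.01 and 2.38 CPM). The Chrd record begins at 20731425, before the start site used here (20733127). On that side Thpo overlaps the record and Polr2h lies 9.15 kb from it, and to which gene the bin belongs was not tested. The highest bin of Nog, at chr11:89302138-89302637 across one end of its short gene (89300638 to 89302559), held 56 and 54 fragments, or 1.07 and 1.84 CPM, a ratio of 1.71 (1.16 to 2.53). It was picked as the highest of 44 bins by its mean over both libraries, and its interval does not allow for that choice. The highest bin of Vwc2 lay 2.10 kb after its start site (chr11:11115868-11116367, 0.94 and 0.72 CPM). It was picked from 351 bins with 70 fragments behind it, and that of Vwc2l from 367 bins with 97 fragments. Whether the places of the highest bins differ between the paralogues beyond counting error was not tested.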

How the data were processed

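Bulk RNA was measured in 6 fibroblast libraries and single-nucleus chromatin in 2 multiome libraries. Per the labels, the authors quantified RNA with Salmon as estimated counts per transcript, used here only for library totals. Gene values come from the authors' deposited table, made with DESeq2 per the labels, which holds a mean normalised signal, a log2 fold change with its SE, a Wald score (the log2 fold change divided by its SE) and p-values. SEs there were smallest at the lowest means (median 0.049 for means up to 2), a mark of shrunk values, so fold changes may be understated, most at low means. Intervals are 95% Wald intervals from the deposited SE. The transcript-to-gene test that had been planned could not be run without a pairing.

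Per the file headers, cellranger-arc 2.0.1 made the multiome fragment files, with counts of read pairs, on mm10. Unique fragments overlapping a window by 1 bp were counted over all barcodes with Python 3.11.15 and pyarrow 21.0.0. Level intervals are exact Poisson and ratio intervals exact conditional binomial (scipy 1.17.1). Window counts, intervals and the adjustment were checked on simulated data.

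Members and lists were chosen with earlier results of these data known. All 9 members were named. From each pathway list, up to 6 called genes (mean 20 or more) were named by largest absolute log2 fold change, and further genes were named as values after they were seen. Of the planned pathway lists, 1 gene was left out of every count and is not reported here. The retinal markers, the bins, the neighbours and the minimum of 3000 fragments were chosen after seeing the data.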

Additional observations from a re-analysis of the deposited data

How the results depend on the processing

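Of the 9 antagonists, 7 were called at an adjusted p under 0.05, 6 at 0.01, and 7 when only genes with a mean of at least 20 were adjusted again. With an absolute log2 fold change over 1 as well, 2 were called. Of the genes tested under each rule, the shares called were 30.6%, 22.5%, 36% and 2.15% in the same order. Of the 59 other genes of the pathway that were tested, 26 were called, and 20, 27 and 2 under the same alternatives. The 27 are out of the 50 with a mean of at least 20. No member passed 1.5-fold in the multiome windows with 10 kb on both sides, with scaling to fragments in gene windows, or in barcodes with at least 3000 fragments (0 in each). The share of all genes past 1.5-fold was computed for the main windows only (7.48%), so nothing is read from these counts. No paired analysis was possible because the per-library files give transcripts that the sources used here do not pair with genes, and the deposited comparison has no values per library. For the same reason other count tests, filters and leaving out libraries were not run. The alternatives for fibroblast peaks were not run, since those peaks were not placed at genes. Depth limits the multiome ratios of the short genes Nog, Grem1 and Fst most.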
